A study of Mus musculus with 4 samples.

Results

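The genes of MHC class II presentation were examined in bone marrow 8 h after injection of lipopolysaccharide (LPS). They were taken from a set list of 10: the surface chain genes H2-Aa, H2-Ab1 and H2-Eb1, the peptide editor genes H2-DMa, H2-DMb1, H2-Oa and H2-Ob, the invariant chain gene Cd74, its protease gene Ctss and the coactivator gene Ciita. Of these, 9 had a probe set annotated to that gene alone and were measured, among 19938 genes in all. H2-DMb1 shares its probe set with H2-DMb2 and has no value here. The study injected C57BL/6N mice once into the peritoneum with phosphate-buffered saline (PBS) or with 50 µg of LPS, an equal mixture from E. coli K12 and S. minnesota. Total RNA of marrow cells was hybridised to Affymetrix Mouse Gene ST arrays, 1 array per sample, with PBS replicates 1 and 3 and LPS replicates 1 and 2. The labels name no genetic change, and age is not given in the sources used here. They do not say how many mice stand behind a sample, so p-values measure the spread between these samples, which may be technical.

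MHC class II molecules are pairs of an alpha and a beta chain that display peptides from endocytosed proteins to CD4+ T cells. In the endoplasmic reticulum the invariant chain (Cd74) fills the groove. In endosomes cathepsin S (Ctss) trims it to the fragment CLIP, H2-DM exchanges CLIP for peptide, and H2-O, found chiefly in B cells, restrains H2-DM. Transcription of most of these genes depends on the coactivator CIITA, which binds no DNA itself and is recruited by the RFX, CREB and NF-Y factors on the X and Y boxes of their promoters. In marrow, B-lineage cells, dendritic cells and macrophages carry class II. The C57BL/6 strain lacks a working alpha chain gene (H2-Ea) for I-E, so that H2-Eb1 RNA is made without an I-E molecule at the surface.

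Promoter sequences are shown for H2-Ob, the member that fell, for H2-Eb1, which has the same pair of boxes, and for Ctss, the member that rose. They come from the RefSeq promoter table of build GRCm38.p6, which holds 250 bases before and 50 after each start site and lists 7 of the 10 genes. Each is read 5′ to 3′ along the plus strand, which is the gene's strand. In the first 2, capitals mark an X box (searched as G, 2 bases of any kind, AC, 2 bases of any kind and ATG) and a Y box (GATTGG). In the third they mark the core of an interferon-stimulated response element (GAAA, 2 bases of any kind, GAAA), a motif added with the result for Ctss known.
H2-Ob, chr17:34238810-34238860: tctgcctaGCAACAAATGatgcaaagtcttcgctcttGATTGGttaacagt
H2-Eb1, chr17:34305768-34305820: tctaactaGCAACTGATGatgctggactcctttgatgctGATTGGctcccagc
Ctss, chr3:95526757-95526782: ctttaaatGAAACCGAAAtgaaagtt
The X box of H2-Ob begins 87 bases before the start site and 19 bases separate it from the Y box. In H2-Eb1 it begins 91 bases before the start and 21 bases lie between. H2-DMb1 also had the pair. With either strand searched and 10 to 30 bases allowed between the boxes, the pair was found in 0.0791% of 32851 promoters, belonging to 23 genes. Of those genes, 4 were class II chain genes (H2-DMb1, H2-Eb1, H2-Eb2 and H2-Ob), out of 8 in the table. H2-Ab1, Cd74 and Ciita are not in the promoter table and were not searched. Of the other listed members, H2-Aa, H2-DMa and H2-Oa held boxes but not the pair in this spelling and spacing, and Ctss held neither box. A Y box, which 16.1% of all promoters hold, was found in H2-Aa, in 1 of the 2 promoters listed for H2-DMa and in H2-Oa, and H2-Oa also held an X box, as 8.97% of promoters do, farther from its Y box than the spacing allowed. The response element core of Ctss begins 21 bases before its start site and occurs in 3.44% of promoters. A match in letters shows neither that a factor binds there nor that it acts.

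After LPS, 1 of the 9 measured genes rose and 1 fell, and 7 did not pass. Ctss rose by 0.51 on the log2 scale and H2-Ob fell by 0.74. A gene was called at a limma p under 0.05 after Benjamini-Hochberg adjustment over all genes tested, and 3.66% of these were called, 2.39% as higher and 1.27% as lower. Apart from Ctss, all measured members had a negative log2 fold change, 8 in number, as did 10468 of all 19938 genes. It was also negative for 16 of 16 mature and 11 of 12 early B-cell, 8 of 9 T-cell, 11 of 12 neutrophil and 7 of 7 erythroid markers. Dendritic cell (9 of 13), monocyte and macrophage (7 of 11) and plasma cell (4 of 7) markers were more mixed. The members' median with Ctss included was -0.22, against -0.0081 over all genes. Both LPS arrays lay below both PBS arrays for 6 members (H2-Aa, H2-Ab1, H2-Eb1, H2-DMa, H2-Ob and Ciita), a pattern seen in 24.5% of all genes, and above them for 1, Ctss, as in 20.4%, so that 44.9% of all genes had groups without overlap. Members can be expressed by the same cells, so that their shared direction is not a set of separate observations. With 2 arrays per group, the smallest two-sided p that an exact permutation test can give for a gene is 0.333.

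**Figure D1:**
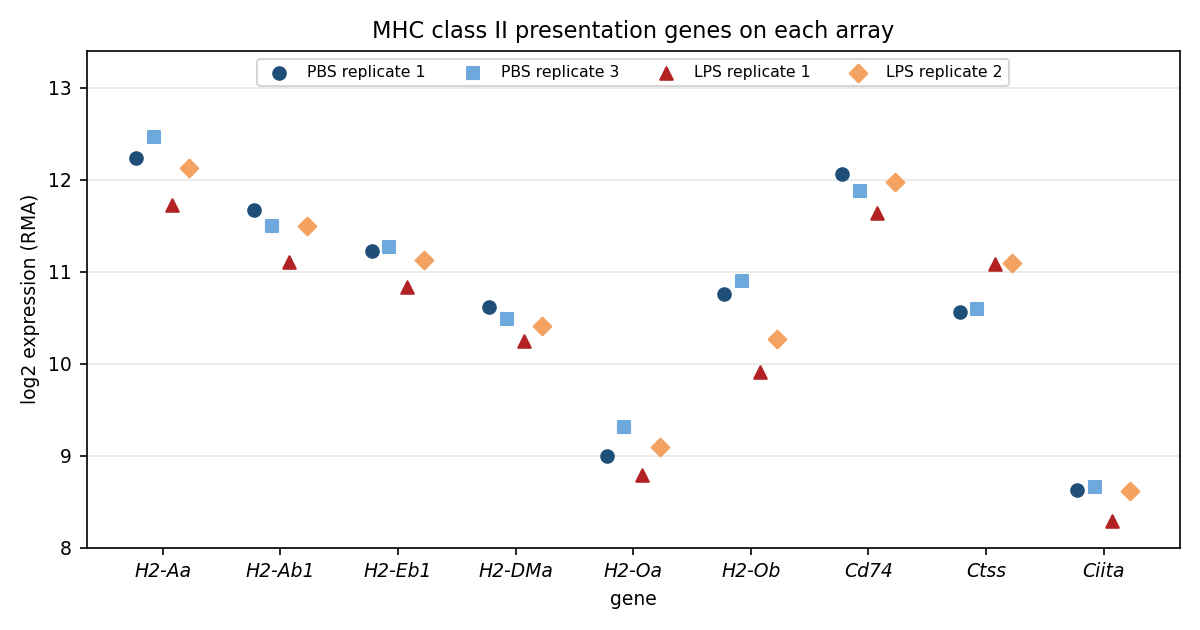
Log2 expression (RMA) of the 9 measured class II presentation genes on each of the 4 arrays, 1 point per array, with genes along the x axis. LPS replicate 1 is the lowest array for every gene but Ctss, for which the LPS pair lies above the PBS pair.

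The surface chain genes did not pass. H2-Aa, the alpha chain of I-A, had log2 values of 12.23 and 12.46 in PBS replicates 1 and 3 and of 11.72 and 12.13 in LPS replicates 1 and 2. LPS replicate 1 was the low array, and LPS replicate 2 lay 0.11 below the lower PBS array. The means were 12.35 ± 0.16 and 11.93 ± 0.29 (SD, n = 2 each), a log2 fold change of -0.42 (SE 0.147, 95% interval -0.76 to -0.079, limma adjusted p = 0.21). Without LPS replicate 2 the change was -0.62 and passed (limma adjusted p = 0.0429).

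H2-Ab1, the beta chain of I-A, had log2 values of 11.67 and 11.50 in the PBS arrays and 11.11 and 11.49 in LPS replicates 1 and 2. The second LPS array was thus only 0.0080 below the lower PBS array, and its log2 fold change came to -0.29 (SE 0.138; 95% interval -0.61 to 0.034). H2-Eb1, the beta chain of I-E, had 11.22 and 11.27 in PBS against 10.83 and 11.13 in LPS, a log2 fold change of -0.27 (SE 0.115, 95% interval -0.54 to 0.00034). As with H2-Ab1, LPS replicate 1 stood apart and LPS replicate 2 lay near the PBS arrays. Limma adjusted p-values were 0.374 for H2-Ab1 and 0.317 for H2-Eb1. Of the paralogs, H2-Eb2 had a log2 fold change of -0.18 (adjusted p = 0.565). H2-Ea, defective in this strain, had log2 values from 5.82 to 6.00, below the lower quartile of genes on each array (6.66 to 6.72).

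Among the peptide editors, H2-Ob fell and its partner did not pass. H2-Ob, the beta chain of H2-O, had log2 values of 10.76 and 10.90 in PBS replicates 1 and 3 and of 9.91 and 10.26 in LPS replicates 1 and 2. Both LPS arrays were well below both PBS arrays, the nearer by 0.49. The means were 10.83 ± 0.10 and 10.09 ± 0.25 (SD, n = 2 each), giving a log2 fold change of -0.74 (SE 0.129; 95% interval -1.04 to -0.44, limma adjusted p = 0.0231), a 1.67-fold difference. The call did not hold with all 35556 probe sets in the fit (adjusted p = 0.125), in an unmoderated linear model (0.477), without LPS replicate 1 (0.0501) or with B-cell markers as a covariate (0.0531), and the direction held in each.

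H2-Oa, the alpha chain that pairs with H2-Ob, had log2 values of 9.003 and 9.31 in PBS and 8.79 and 9.09 in LPS. Its groups overlapped, and the PBS arrays differed by 0.31, more than the log2 fold change of -0.22 (SE 0.140, 95% interval -0.54 to 0.11, limma adjusted p = 0.532). Set against its partner within each array, H2-Ob stood 0.34 and 0.18 above H2-Oa in the PBS arrays and 0.29 and 0.24 below it in the LPS arrays, each gene taken as its deviation from its own mean over the 4 arrays. The difference between the partners thus shifted by -0.52 between the groups. This restates the fold changes of both genes, of which H2-Ob was the one that passed, and adds no separate evidence.

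H2-DMa, the alpha chain of the CLIP exchanger H2-DM, had log2 values of 10.62 and 10.48 in PBS and 10.24 and 10.41 in LPS. Both LPS arrays lay below the PBS arrays, LPS replicate 2 by 0.069, which gave a log2 fold change of -0.22 (SE 0.102; 95% interval -0.46 to 0.016, limma adjusted p = 0.351). With deviations taken in the same way, H2-Oa minus H2-DMa was -0.22 and 0.22 in the PBS arrays. It was -0.060 and 0.067 in the LPS arrays. Its mean moved by 0.0064 between the groups, but the PBS arrays lay far apart. H2-Ob minus H2-DMa was 0.12 and 0.40 in PBS and -0.35 and -0.17 in LPS, and its mean moved by -0.52. This too restates the fold changes of the genes compared.

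Of the invariant chain and its protease, the protease gene passed. Cd74 had log2 values of 12.06 and 11.87 in PBS and 11.64 and 11.98 in LPS replicates 1 and 2. LPS replicate 2 lay between the PBS arrays, and the log2 fold change of -0.16 did not pass (SE 0.131, 95% interval -0.46 to 0.15, limma adjusted p = 0.656). Without LPS replicate 1 it was 0.012.

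Ctss, by contrast, had log2 values of 10.56 and 10.60 in PBS and 11.08 and 11.09 in LPS. The arrays of each group were nearly equal, and the LPS pair was higher throughout. The means were 10.58 ± 0.026 and 11.09 ± 0.0050 (SD, n = 2 each), giving a log2 fold change of 0.51 (SE 0.0862; 95% interval 0.31 to 0.71, limma adjusted p = 0.0203), a 1.42-fold rise. The value stayed between 0.49 and 0.52 under every alternative run, but the adjusted p was above 0.05 with all probe sets in the fit (0.0859), in the unmoderated model (0.255), with the B-cell covariate (0.0721), without LPS replicate 1 (0.0714) and without LPS replicate 2 (0.086). The last 2 fits have a single LPS array, which is assumed to vary like the PBS arrays.

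Other enzymes of the endosomal route were followed as a list of 9, of which 2 rose and 7 did not pass in limma, with a median of 0.13. Ctsz, the carboxypeptidase cathepsin Z, rose by 0.65 (SE 0.0898, adjusted p = 0.00725), from 11.46 and 11.54 in PBS to 12.12 and 12.19 in LPS. Sppl2a, the intramembrane protease that removes the last fragment of the invariant chain, rose by 0.61 (SE 0.0976, adjusted p = 0.0155), from 10.99 and 11.17 to 11.70 and 11.68. For both genes, as for Ctss, the LPS arrays lay close together. Ctsl, the cathepsin that does the work of Ctss in thymic epithelium, had 0.40 (adjusted p = 0.18), and Ifi30, the endosomal thiol reductase, had 0.13 (adjusted p = 0.602).

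Ciita did not pass. Its log2 values were 8.63 and 8.66 in PBS and 8.29 and 8.62 in LPS replicates 1 and 2, with LPS replicate 2 only 0.010 below the lower PBS array. Its log2 fold change came to -0.19 (SE 0.121; 95% interval -0.47 to 0.092, limma adjusted p = 0.526), and without LPS replicate 1 it was -0.024.

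The factors that bind class II promoters were 7 genes, and 0 passed in limma in either direction, around a median of -0.096. Rfx5, Rfxap and Rfxank, the subunits of RFX, had log2 fold changes of 0.11, -0.096 and -0.14. Nfya, Nfyb and Nfyc, the subunits of NF-Y, had -0.039, -0.071 and -0.17, and Creb1 had -0.17. Their adjusted p-values lay between 0.412 and 0.909, and their unadjusted p-values between 0.0903 and 0.675, so that 0 were under 0.05. Over all 19938 genes, 3149 had an unadjusted limma p under 0.05.

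Upstream, interferon gamma drives Ciita in macrophages through JAK kinases and IRF1. Of the 7 genes measured on that route, 2 rose and 5 did not pass, with a median of 0.20. Irf1, the transcription factor, had log2 values of 9.77 and 9.94 in PBS and 11.08 and 11.23 in LPS and rose by 1.30 (SE 0.104, limma adjusted p = 0.000427). Socs1, the inhibitor of JAK signalling, rose by 0.85 (SE 0.0998, limma adjusted p = 0.00318), from 8.68 and 8.60 to 9.40 and 9.58. In both genes the LPS arrays lay above the PBS arrays, as in 20.4% of all genes. For Ciita and the surface chains they lay below the PBS arrays, as in 24.5% of all genes. Whether this route acted on Ciita in these samples was not tested. The cytokine gene Ifng had 0.21 (adjusted p = 0.297), its receptor genes Ifngr1 and Ifngr2 had -0.18 and 0.20, and the kinase genes Jak1 and Jak2 had -0.057 and 0.066, and none of these 5 passed.

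The LPS arrays differed from each other in class II genes. LPS replicate 1 was below LPS replicate 2 in all 9 members, with a median difference of -0.33 and a difference of -0.41 for H2-Aa, -0.35 for H2-Ob and -0.0071 for Ctss. Mature B-cell markers moved with them. With each gene centred on its own mean, the median of the 16 measured markers stood at 0.13 and 0.085 in PBS replicates 1 and 3, at -0.32 in LPS replicate 1 and at 0.12 in LPS replicate 2. The median of the members stood at 0.11 in both PBS arrays, at -0.26 in LPS replicate 1 and at 0.042 in LPS replicate 2. LPS replicate 1 was the lower LPS array in 15 of the 16 B-cell markers. The summed level of these markers was 14.93 to 14.95 log2 in PBS and 14.52 to 14.98 in LPS. Their lowest mean log2 level was 7.74, for Cr2. This lies above the lower quartile of genes on each array (6.66 to 6.72) and below the array medians (8.01 to 8.03). In such bulk samples fewer cells of a type and less RNA per cell cannot be told apart.

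**Figure D2:**
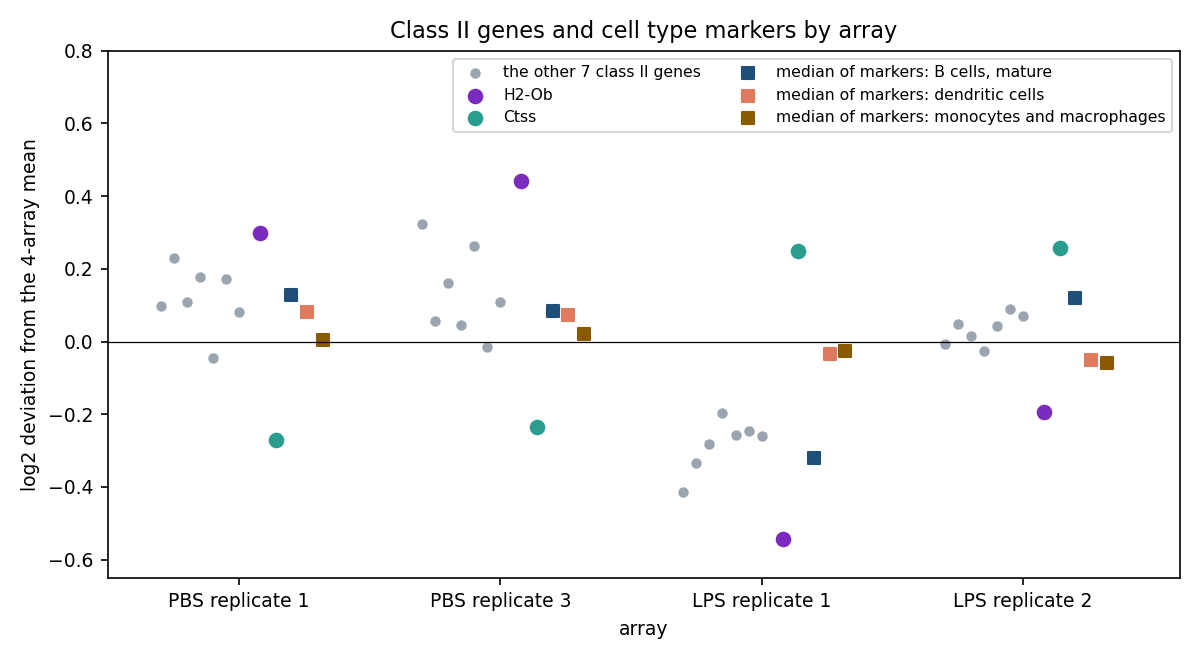
Log2 deviation of each class II presentation gene from its mean over the 4 arrays, with the median deviation of 3 marker lists, for each array along the x axis. In LPS replicate 1 the class II genes other than Ctss lie between -0.54 and -0.20 around the mature B-cell median of -0.32, while in LPS replicate 2 H2-Ob lies at -0.19 below the others.

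In LPS replicate 2 the median of the mature B-cell markers was level with PBS, though not every B-lineage gene was. There Fcer2a lay 1.54, Cr2 0.68 and Bank1 0.24 below the lower PBS array, and the median of the early markers stood at -0.044 against 0.12 and 0.15 in PBS. The part of B-lineage cells in the fall of H2-Ob was thus not tested by leaving out LPS replicate 1. Without LPS replicate 1, H2-Ob had a log2 fold change of -0.56 (SE 0.138) and Ctss one of 0.51 (SE 0.134), with adjusted p-values as given above. The others shrank towards 0, with -0.22 for H2-Aa, -0.14 for H2-DMa, -0.12 for H2-Eb1, -0.095 for H2-Ab1, -0.066 for H2-Oa, -0.024 for Ciita and 0.012 for Cd74. Their SEs ran from 0.134 to 0.154, larger than 6 of the 7 values. With the median deviation of the mature B-cell markers as a covariate and all 4 arrays, which leaves 1 residual degree of freedom, the values were -0.58 for H2-Ob, 0.51 for Ctss and -0.24 for H2-Aa, and between -0.14 and 0.0079 for the remaining 6. This covariate sets LPS replicate 1 (-0.32) apart from the other 3 arrays (0.085 to 0.13), so that the fit nearly repeats the one without that array and adds no separate evidence. The median over the members was -0.095 without LPS replicate 1, -0.10 with the covariate and -0.37 without LPS replicate 2.

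**Figure D3:**
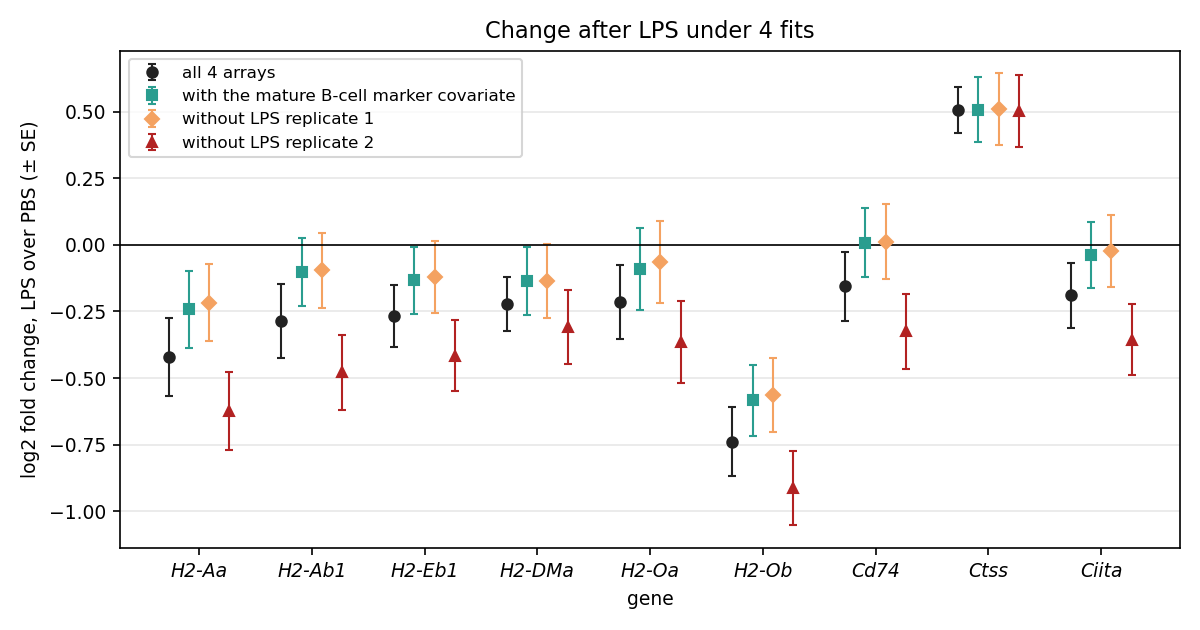
Log2 fold change of LPS over PBS with its SE for each gene along the x axis, in 4 fits: all 4 arrays, the mature B-cell markers as a covariate, and each LPS array left out. Ctss stays near 0.51 and H2-Ob between -0.56 and -0.91 in these fits, while Cd74 runs from -0.32 to 0.012.

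B-cell markers did not all follow this pattern. Of the 16 mature markers, 2 fell in limma and 14 did not pass, with a median of -0.19. Fcer2a, the low-affinity IgE receptor CD23 of mature B cells, had log2 values of 9.34 and 9.45 in PBS and 7.77 and 7.79 in LPS, and it fell by 1.61 (SE 0.0905, adjusted p = 6.96e-05). Cr2, the complement receptor CD21, had 7.99 and 8.25 in PBS and 7.42 and 7.31 in LPS, and it fell by 0.75 (SE 0.111, adjusted p = 0.0105). Both LPS arrays lay below both PBS arrays in 4 of the 16 mature markers (Fcer2a, Cr2, Bank1 and Blk). The same was true of 7 of the 12 early ones and of H2-Ob, against 24.5% of all genes. It also held for 6 of 9 T-cell, 7 of 12 neutrophil, 5 of 7 erythroid and 6 of 13 dendritic cell markers. Among monocyte and macrophage markers it held for 4 of 11, and among plasma cell markers for 3 of 7. This pattern was thus not particular to B-lineage markers. In the other mature markers the groups overlapped. Of these, chosen after their values were seen, Cd79a, a signalling chain of the B-cell receptor, had 12.21 and 12.12 in PBS against 11.75 and 12.27 in LPS, and Ms4a1, which encodes CD20, had 10.83 and 11.01 against 10.67 and 11.15. In both Cd79a and Ms4a1 LPS replicate 2 was the highest of the 4 arrays. Of 12 early B-cell markers, 1 fell and 11 did not pass, with a median of -0.26. Dntt, the terminal transferase of receptor rearrangement, fell by 0.55 (limma adjusted p = 0.0184). The summed level of the early markers was 14.13 to 14.23 in PBS and 13.86 to 14.06 in LPS.

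Markers of the other class II-bearing cells did not separate the LPS arrays in this way. The 13 dendritic cell markers had median deviations of 0.081 and 0.073 in PBS and -0.034 and -0.050 in LPS replicates 1 and 2, and LPS replicate 1 was the lower LPS array in 5 of them. Their summed level was 12.89 to 12.92 in PBS and 12.73 to 12.77 in LPS. Of the 13, 1 passed, Cd209a, a lectin receptor, which fell by 2.02 (limma adjusted p = 5.32e-05). An unadjusted limma p under 0.05 was held by 6 of the 13, beside 3149 of all 19938 genes. Both LPS arrays lay below both PBS arrays in 6 of the 13, against 24.5% of all genes. The 11 monocyte and macrophage markers held 3 rises and 3 falls around a median of -0.085, with a summed level of 13.64 to 13.66 in PBS and 13.63 to 13.66 in LPS. Cd14, the LPS co-receptor, rose by 1.94, Fcgr1, an activating IgG receptor, by 1.57 and Adgre1, the macrophage antigen F4/80, by 0.56. Cd163, a haemoglobin scavenger receptor, fell by 2.41, Mrc1, the mannose receptor, by 1.72 and Mertk, a receptor for dying cells, by 0.54. Limma adjusted p-values of these 6 were at most 0.0317. The part of dendritic cells, monocytes and macrophages in the values of Ctss and H2-Ob was not tested.

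In the genome the class II chain genes flank genes of another pathway. In RefSeq order on chromosome 17, H2-Oa, Brd2, H2-DMa, H2-DMb2 and H2-DMb1 are followed by Psmb9, Tap1, Psmb8 and Tap2 and then by H2-Ob, H2-Ab1, H2-Aa, H2-Eb1 and H2-Eb2. Psmb9 and Psmb8 encode immunoproteasome subunits and Tap1 and Tap2 the peptide transporter, all of which serve class I. These 4 rose, by 0.91 for Psmb9 (SE 0.0885), 1.10 for Tap1 (SE 0.120), 0.72 for Psmb8 (SE 0.125) and 0.70 for Tap2 (SE 0.137), with limma adjusted p-values from 0.00127 to 0.036. Next to Tap2, which had log2 values of 9.48 and 9.07 in PBS and 9.93 and 10.02 in LPS, lies H2-Ob with its fall of 0.74. Of the measured class II chain genes in this stretch, H2-Ob alone passed, and the log2 fold changes of all of them were negative.

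**Figure D4:**
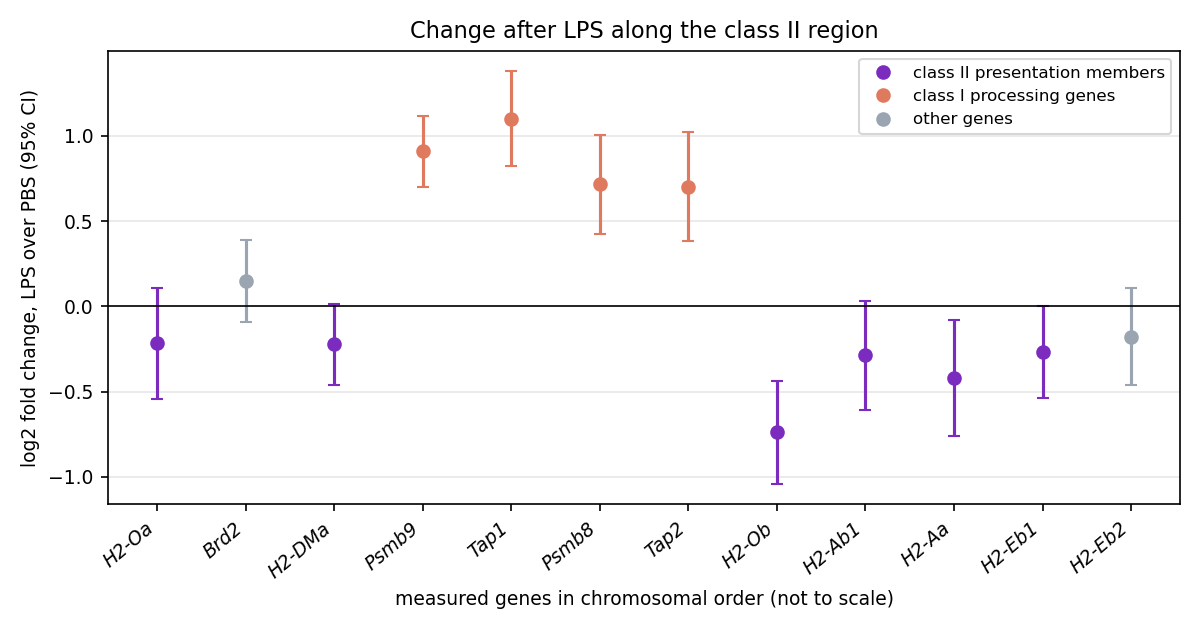
Log2 fold change of LPS over PBS with its 95% interval for the measured genes from H2-Oa to H2-Eb2 in chromosomal order, with distances not to scale. The 4 class I processing genes in the middle lie between 0.70 and 1.10, and the class II genes on both sides lie between -0.74 and -0.18.

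Genes with the profile closest to that of H2-Aa and H2-Ab1 were sought by Euclidean distance over the 4 arrays, each gene as its deviation from its own mean. The mean of the pair stood at 0.16 and 0.19 in PBS replicates 1 and 3, at -0.37 in LPS replicate 1 and at 0.021 in LPS replicate 2. The closest genes outside the members were Irf4 (distance 0.0373), a transcription factor of B and plasma cells, Ebf1 (0.0474), a transcription factor that establishes the B lineage, Lrmp (0.0883), Zfp318 (0.0889), Cpm (0.095), Ltc4s (0.103), Rbm44 (0.105) and Kcnj1 (0.11). Of these, only Irf4 and Ebf1 were on a list of cell type markers. Among all genes other than the pair, H2-Eb1 ranked at 11 (distance 0.112) and Ciita at 71 (0.17), and H2-DMa, Cd74 and H2-Oa followed at 304, 425 and 433. H2-Ob ranked at 4806 and Ctss at 19285. Such a distance grows with the size of a change as well as with a difference in shape. H2-Ob stood at 0.30 and 0.44 in PBS replicates 1 and 3 and at -0.54 and -0.19 in LPS replicates 1 and 2. Its rank therefore does not show that its shape was unlike that of the pair. The 4 arrays are only 2 per group, and these distances are descriptions without a test.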

How the data were processed

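The authors summarised each probe set with RMA and deposited log2 values, per the submitters' processing notes. The RMA version is not given in the sources used here, and the scale is taken from the range of the values (2.76 to 14.52). Probe sets were named through the platform annotation: of 35556, those with a single gene symbol (21789) were used, and those with several (1621) or none (12146) were not. The brightest probe set stood for each gene, and each member had a single one. LPS and PBS were compared in limma 3.58.1 (R 4.3.3; lmFit and eBayes, two-sided, 4 arrays, no covariate, 5.59 prior and 2 residual degrees of freedom) with Benjamini-Hochberg adjustment over 19938 genes. The fit was tested on simulated data. No low values were filtered, and the number of arrays limits the precision.

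Median log2 values per array were 8.01 to 8.03, and arrays correlated across genes at r = 0.988 to 0.997. Members and lists were chosen with earlier results of these data known. Named genes were all members, all promoter factors and interferon route genes, up to 3 rises and 3 falls of each other list (or its 2 brightest genes where none passed) and the 8 nearest profiles. Ctsl, Ifi30, Bank1, Blk, Cd79a, Ms4a1, Cd86, Icosl and the genes of the chromosomal stretch were added after their values were seen. Figures were drawn with matplotlib 3.10.9.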

Additional observations from a re-analysis of the deposited data

How the results depend on the processing

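The counts of class II members past the threshold depended on the setting. With all probe sets in the fit, in the unmoderated linear model, with the mature B-cell covariate, at an adjusted p under 0.01 and without LPS replicate 1, 0 members were higher and 0 lower in limma or the linear model. At an unadjusted p under 0.05 the limma fit with all probe sets held 3 members, beside 4421 of 35556 probe sets. The unmoderated linear model held 1 member, beside 2185 of 19938 genes. The limma fit with the covariate held 2 members, beside 2464 of 19938 genes. Leaving out 1 array at a time gave 0 to 1 higher and 0 to 2 lower members, the 2 (H2-Aa and H2-Ob) without LPS replicate 2. The members' median ran from -0.37 to -0.095 over these fits and kept its sign throughout. Cd74 changed sign with the covariate (0.0079) and without LPS replicate 1 (0.012), with -0.32 to 0.012 over the fits that leave out an array, and no other member did in any of the 13 alternatives, among them both scalings and both filters on low values. Over all genes, 476 rose and 254 fell. Leaving out 1 array gave 385 to 696 higher and 127 to 423 lower genes, the lower counts being 382 when PBS replicate 1 was left out, 423 for PBS replicate 3 and 127 for LPS replicate 2. With all probe sets 63 probe sets were lower, at an adjusted p under 0.01 286 genes were higher and 58 lower, and the unmoderated model called 0 in each direction, with 2185 at an unadjusted p under 0.05. The cause of these differences was not tested. No paired analysis was possible because the groups share only replicate number 1.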

Other observations

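Molecules that act beside class II at the cell surface were followed as well. Of 5 accessory genes 2 rose and 3 did not pass in limma, with a median of 0.46. Cd274, which encodes the inhibitory ligand PD-L1, had log2 values of 8.37 and 8.42 in PBS and 10.88 and 10.95 in LPS and rose by 2.52 (SE 0.0889, adjusted p = 1.11e-05). Cd40, the receptor for T-cell help, rose by 1.06 (SE 0.144, adjusted p = 0.00658), from 9.30 and 9.26 to 10.12 and 10.57. Cd86, a ligand of CD28, had 0.46 (adjusted p = 0.0704). Icosl, one of the 23 genes whose promoter holds the X and Y box pair, had -0.0059 (adjusted p = 0.991). Of 4 genes that regulate class II at the surface, 0 passed in limma in either direction. An unadjusted limma p under 0.05 was held by 2 of them, beside 3149 of all 19938 genes. The ubiquitin ligase genes Marchf8 and Marchf1 had -0.37 (adjusted p = 0.0755) and -0.044 (adjusted p = 0.892).

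Other cell type lists gave the following values. Over all 19938 genes, 3149 had an unadjusted limma p under 0.05. Of 9 T-cell markers, 2 fell in limma, Cd8b1 by 0.52 (adjusted p = 0.0411) and Icos by 0.45 (adjusted p = 0.0482), with a median of -0.23. Plasma cell markers held 0 limma calls among 7 (5 at an unadjusted p under 0.05) and a median of -0.024, with Xbp1 at 0.29 and Irf4 at -0.36. Neutrophil markers held 0 limma calls among 12 (4 at an unadjusted p under 0.05) and a median of -0.17, with Ngp at 0.0025 and S100a8 at -0.067, and LPS replicate 1 was the lower LPS array in 0 of them. Erythroid markers held 0 limma calls among 7 (2 at an unadjusted p under 0.05) and a median of -0.18, with Car2 at -0.090 and Slc4a1 at -0.18.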
